A study of Homo sapiens with 5 samples.

Results

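The matrix genes described here are the non-collagen proteins of the extracellular matrix: laminins and nidogens, fibrillins and other elastic fibre proteins, fibronectin and the matricellular proteins, secreted and membrane-bound proteoglycans, and a few further matrix proteins. They are 59 genes among 43714 gene rows, taken by symbol from a list of names. The list was drawn up with earlier results of these data known. Of the 59, 47 had enough reads to be tested, among 15859 tested genes, and 12 did not. They were measured by RNA sequencing in Rh41, a human cell line from an alveolar, fusion-positive rhabdomyosarcoma, a sarcoma whose cells resemble muscle precursors. The cells were transfected for 48 hours, with Lipofectamine RNAiMAX as carrier, with an siRNA against H3F3A (3 libraries, replicates 1, 2 and 3) or with a scrambled siRNA (2 libraries, replicates 1 and 3). H3F3A is a gene for the histone variant H3.3, and the comparison asks which transcripts change when the H3F3A transcript is depleted. All libraries come from 1 cell line, and the labels do not say how many siRNA sequences were used.

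The extracellular matrix is the protein and sugar network that cells secrete around themselves. Laminins assemble from an alpha, a beta and a gamma chain into sheets that nidogens and the heparan sulfate proteoglycan perlecan tie to the collagen network of the basement membrane, which surrounds each muscle fibre. Fibrillins form microfibrils on which elastin is laid down with the help of fibulins, fibronectin gives cells an adhesive substrate, matricellular proteins such as tenascin-C and the thrombospondins modulate adhesion without a structural role, and glypicans and syndecans hold heparan sulfate chains at the cell surface.

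The targeted transcript was depleted to 3.36% of its scrambled siRNA level. The row H3-3A, the current symbol of H3F3A, had 9.38, 10.5 and 8.54 CPM (counts scaled to library size) in the H3F3A siRNA libraries, against 294 and 269 CPM in the scrambled siRNA libraries (log2 fold change -4.89, SE 0.0923, edgeR adjusted p = 9.04e-21). H3-3B, the other gene for H3.3, stood at 819 ± 28 CPM (SD, n = 3) and 821 ± 25.6 CPM (SD, n = 2). The libraries hold RNA only, so how far H3.3 protein fell is not known from them. Between 28493573 and 30705963 reads were assigned to genes per library, and the 59 matrix genes held 1.05% to 1.18% of them in H3F3A siRNA libraries, against 1.25% and 1.28% in scrambled siRNA libraries. Scrambled siRNA replicate 1 stood apart in a trend with base composition: the log2 level of a library's genes, set against the average library, had slopes per 10 points of transcript GC content of -0.0679, -0.0345 and -0.0376 in H3F3A siRNA replicates 1, 2 and 3, against 0.141 in scrambled siRNA replicate 1 and -0.00106 in scrambled siRNA replicate 3. Each result below is therefore also given with the GC trend of every library removed or without that library, where the call differs. Whether the replicates were separate cultures is not stated in the labels, and p-values then reflect only how far these samples spread, possibly for technical reasons.

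Markers of the labelled cell type were abundant. The myogenic factor MYOD1 stood at 1095 and 1340.4 CPM in the means of H3F3A siRNA and scrambled siRNA libraries, the muscle intermediate filament gene DES at 675 and 835 CPM, and 1 of 14 rhabdomyosarcoma markers, MYF5, lay under 1 CPM. The 10 epithelial and the 10 immune markers summed to 8.82 to 9.75 and 5.31 to 5.8 CPM in H3F3A siRNA libraries, against 9.46 to 11.4 and 5.96 to 6.24 CPM in scrambled siRNA libraries. The fibroblast markers THY1, DPT, PDPN and TCF21 were at or near 0, although COL3A1, a fibrillar collagen on the same list, stood at 1205 and 1189 CPM. Of the 6 tested fibroblast markers, PDGFRB fell (34.7 and 44.4 CPM, edgeR adjusted p = 0.0162) and PDGFRA rose (6.25 and 4.31 CPM, adjusted p = 0.0455, and 0.12 with the GC trend removed and 0.324 without scrambled siRNA replicate 1). The endothelial markers CDH5, KDR and ERG were near 0, and most of the endothelial list, which summed to 107 to 118 CPM in H3F3A siRNA libraries against 135 and 178 CPM in scrambled siRNA libraries, came from EGFL7, itself lower after H3F3A siRNA (106 and 148 CPM, log2 fold change -0.48, edgeR adjusted p = 0.0101), though not with the GC trend removed (-0.20, adjusted p = 0.119) or without scrambled siRNA replicate 1 (-0.25, adjusted p = 0.168). The summed rhabdomyosarcoma markers ran from 6184 to 6393 CPM in H3F3A siRNA libraries, against 6925 and 8257 CPM in scrambled siRNA libraries. Of 13 tested, FGFR4 (log2 fold change -0.50, edgeR adjusted p = 0.00257) and TNNT2 (-0.30, adjusted p = 0.0326, and 0.226 without scrambled siRNA replicate 1) fell, and TFAP2B, a target of the fusion protein, rose (0.49, adjusted p = 0.00133). Whether a shift in cell state plays a part in the matrix results was not tested. In bulk RNA, fewer cells of a type and less RNA per cell cannot be told apart.

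Of the 47 tested matrix genes, 8 fell after H3F3A siRNA and none rose by edgeR's quasi-likelihood test at a Benjamini-Hochberg adjusted p under 0.05 over all tested genes. They were the laminin chains LAMA5 and LAMB3, perlecan (HSPG2), fibulin-4 (EFEMP2), tenascin-C (TNC), thrombospondin-1 (THBS1), glypican-1 (GPC1) and extracellular matrix protein 1 (ECM1). The falls were small, from 1.2-fold to 1.36-fold. Over all tested genes, 2.69% fell and 0.504% rose by the same rule. At an unadjusted p under 0.05, 19 of the 47 were lower and 2 higher (10.9% and 5.91% of all tested genes). DESeq2 gave 11 members lower and none higher (4.41% and 0.503% of the genes to which it gave an adjusted p), and limma-voom 7 lower and none higher (1.83% and 0.328% of all tested genes). The median log2 fold change was -0.17 over the 47 matrix genes and 0.01 over all tested genes, and 36 of the 47 lay below 0 (76.6%, against 48.6% of all tested genes).

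The number of genes past the threshold changed with single libraries, among all genes as among the matrix genes. The 8 genes kept their direction. Their libraries do not overlap between the groups, so leaving out 1 library could hardly reverse it. Without scrambled siRNA replicate 1, THBS1 was the only member lower (0.501% of all genes fell and 0.122% rose), at log2 fold changes of -0.44 to -0.21 over the 8 genes, against -0.45 to -0.27 with all libraries. Without scrambled siRNA replicate 3, all 8 remained lower, with 17 members lower and 1 higher in all, where 10.6% of all genes fell and 4.54% rose. Leaving out H3F3A siRNA replicate 1 left no member past the threshold (15 were lower at an unadjusted p under 0.05), where 0.0575% of all genes fell and 0.0383% rose, and the 8 genes still had log2 fold changes of -0.51 to -0.26. Without H3F3A siRNA replicate 2, 3 of the 8 passed (0.977% of all genes fell and 0.153% rose), and without H3F3A siRNA replicate 3, 5 did (1.62% fell and 0.351% rose). With the GC trend removed, LAMB3, TNC, THBS1 and ECM1 remained lower, SPARC joined them, and MFAP4 and THBS3 were higher (1.59% of all genes fell and 0.473% rose). With the GC trend removed and scrambled siRNA replicate 1 left out, THBS1 alone remained (0.403% of all genes fell and 0.11% rose).

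**Figure D1:**
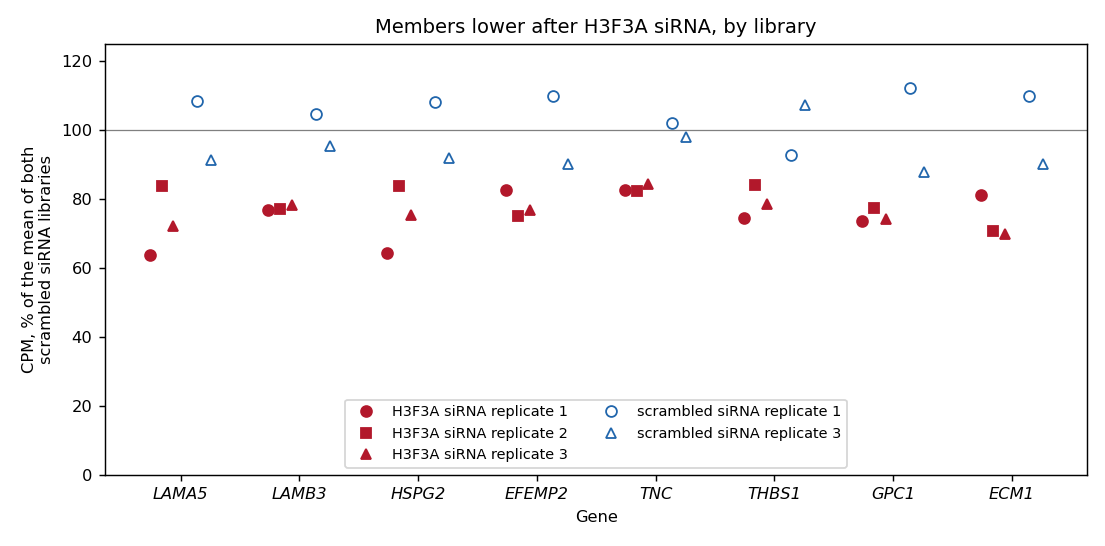
Level of the 8 matrix genes that fell, in each library, as a percentage of the mean CPM of both scrambled siRNA libraries (vertical axis, from 0). Filled red symbols are the 3 H3F3A siRNA libraries and open blue symbols the 2 scrambled siRNA libraries. The groups do not overlap in any of the 8 genes (every H3F3A siRNA library was below both others in 17.1% of all tested genes), and scrambled siRNA replicate 1 is the higher of the pair in all but THBS1.

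THBS1, a matricellular glycoprotein that binds CD47 and CD36 and activates latent TGF-beta, had 62.9, 71 and 66.2 CPM in H3F3A siRNA libraries, against 78.2 and 90.6 CPM in scrambled siRNA libraries. Every H3F3A siRNA library lay below both scrambled siRNA libraries, and here scrambled siRNA replicate 3, not replicate 1, was the highest. The log2 fold change was -0.34 (SE 0.0824, edgeR adjusted p = 0.025), -0.44 without scrambled siRNA replicate 1 (adjusted p = 0.00464) and -0.40 with the GC trend removed (adjusted p = 0.00314). It missed the threshold when H3F3A siRNA replicate 1 (adjusted p = 0.224), replicate 2 (adjusted p = 0.0566) or replicate 3 (adjusted p = 0.072) was left out, at log2 fold changes of -0.30, -0.39 and -0.33. The gene's longest transcript has a GC content of 45.6%, where the median log2 fold change of all tested genes was 0.06.

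TNC, a large hexameric glycoprotein of embryonic and tumour matrix, had 637, 635 and 651 CPM in H3F3A siRNA libraries, against 788 and 756 CPM in scrambled siRNA libraries. The libraries of each group lay close together and the groups were apart (log2 fold change -0.27, SE 0.0737, edgeR adjusted p = 0.0472). It was -0.24 after GC removal (adjusted p = 0.0254), and without scrambled siRNA replicate 1 also -0.24 (adjusted p = 0.185). TNC passed in 9 of 17 alternatives: it missed by limma-voom (adjusted p = 0.0514), with upper-quartile scaling (0.069), with the replicate number as a block (0.112) and without any 1 of the H3F3A siRNA libraries (0.163 to 0.203), at log2 fold changes of -0.28 to -0.24. ECM1, a secreted glycoprotein mutated in lipoid proteinosis, had 348, 303 and 299.8 CPM in H3F3A siRNA libraries, against 472 and 387 CPM in scrambled siRNA libraries. All 3 H3F3A siRNA libraries were lower than both others, but the scrambled siRNA libraries differed from each other by more than the gap between the groups (log2 fold change -0.44, SE 0.0884, adjusted p = 0.00822). After GC removal it was -0.35 (adjusted p = 0.0159), and without scrambled siRNA replicate 1, uncorrected for GC, -0.29 (adjusted p = 0.144).

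LAMB3, a laminin beta chain of epithelial basement membranes that pairs with the alpha chain LAMA3, had 47.3, 47.5 and 48.3 CPM in H3F3A siRNA libraries, against 64.4 and 58.8 CPM in scrambled siRNA libraries. The H3F3A siRNA libraries differed among themselves by about 1 CPM and lay below both scrambled siRNA libraries (log2 fold change -0.37, SE 0.0776, edgeR adjusted p = 0.0105). It was -0.26 after GC removal (adjusted p = 0.0191), and without scrambled siRNA replicate 1 -0.30 (adjusted p = 0.0709). LAMA3 was scarce, with an average of 0.426 CPM after H3F3A siRNA and 0.546 CPM after scrambled siRNA.

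The other 4 genes that fell have GC-rich transcripts, at 62.9% to 66.7% GC, and none of them passed with the GC trend removed. HSPG2, the perlecan core protein, had 1332, 1735 and 1564 CPM in H3F3A siRNA libraries, against 2241 and 1902 CPM in scrambled siRNA libraries. The groups did not overlap, but the highest H3F3A siRNA library and the lower scrambled siRNA library were closer to each other than any neighbours within a group (log2 fold change -0.42, SE 0.0974, edgeR adjusted p = 0.0201). Its value after GC removal was -0.22 (adjusted p = 0.215), and without scrambled siRNA replicate 1 it was -0.30 (adjusted p = 0.409). The stranded columns of HSPG2 summed to 1.29 times the unstranded count, as happens where a gene overlaps another on the opposite strand, and with the sum the log2 fold change was -0.38 (adjusted p = 0.0127).

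LAMA5, the alpha chain of laminin-511 and laminin-521, the widespread laminins of adult basement membranes, had 185, 243 and 209 CPM in H3F3A siRNA libraries, against 314 and 265 CPM in scrambled siRNA libraries. Its libraries followed the same order as those of HSPG2 in each group, with H3F3A siRNA replicate 1 lowest and scrambled siRNA replicate 1 highest (log2 fold change -0.45, SE 0.0974, edgeR adjusted p = 0.0152). After GC removal it was -0.21 (adjusted p = 0.235), and without scrambled siRNA replicate 1, uncorrected for GC, -0.32 (adjusted p = 0.448). GPC1, a glycosylphosphatidylinositol-anchored heparan sulfate proteoglycan, had 347, 365 and 349 CPM in H3F3A siRNA libraries, against 528 and 414 CPM in scrambled siRNA libraries. The H3F3A siRNA libraries were close together, and scrambled siRNA replicate 1 was the one far above the rest. The log2 fold change was -0.41 (SE 0.087, adjusted p = 0.0105), -0.17 with the GC trend removed (adjusted p = 0.134) and -0.23 without scrambled siRNA replicate 1 (adjusted p = 0.196). EFEMP2, or fibulin-4, which brings lysyl oxidase to elastic fibres, had 70.1, 63.5 and 65 CPM in H3F3A siRNA libraries, against 93.2 and 76.3 CPM in scrambled siRNA libraries, also with scrambled siRNA replicate 1 highest. Its log2 fold change was -0.36 (SE 0.0857, adjusted p = 0.0245), -0.17 with the GC trend removed (adjusted p = 0.179) and -0.21 without scrambled siRNA replicate 1 (adjusted p = 0.317).

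**Figure D2:**
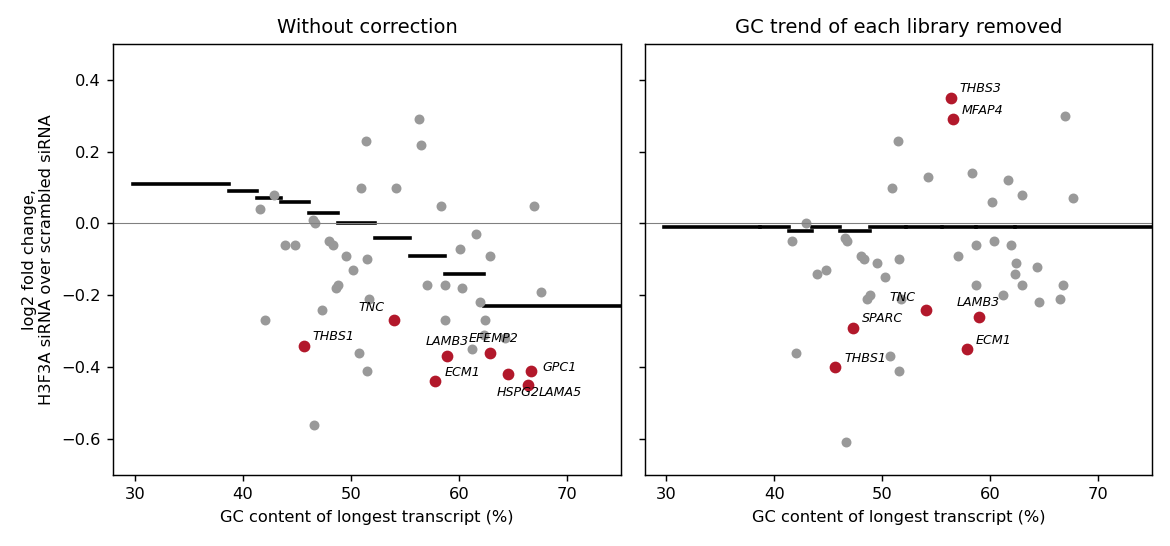
Log2 fold change of the 47 tested matrix genes (vertical axis) against the GC content of their longest transcript (horizontal axis), as measured (left) and with the GC trend of each library removed (right). Red points passed an adjusted p of 0.05, grey points did not, and black bars are the medians of all tested genes in 10 bins of GC content, which run from 0.11 to -0.23 on the left and lie at -0.01 or -0.02 on the right.

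The GC content of the matrix genes was high, with a median of 54.2% over the 47 tested genes and 48.8% over the 14176 tested genes with a value. In the GC-richest of 10 equal bins of genes (62.3% and above), 14.2% of all tested genes fell and the median log2 fold change was -0.23, and 4 of the 10 matrix genes in that bin fell. After GC removal, 2.05% of all genes in that bin were lower and none of the 10 matrix genes was.

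Sequences upstream of the fallen genes also varied in base composition. They are shown to set the genes still lower after GC removal beside those that were not. RefSeq promoter windows (build GRCh38.p14) were found for 45 of the 59 genes, 38 of them tested, and the 250 bases before the annotated start are used, which hold none of the transcript. The window of LAMB3 lies at chr1:209652426-209652675 on the minus strand, that of TNC at chr9:115118158-115118407 on the minus strand, that of THBS1 at chr15:39580829-39581078 on the plus strand and that of ECM1 at chr1:150507859-150508108 on the plus strand. For genes that passed only before GC removal, the window of HSPG2 lies at chr1:21937311-21937560 on the minus strand and that of GPC1 at chr2:240435413-240435662 on the plus strand. Each is printed 5′ to 3′ in the direction of transcription. Capitals mark matches on either strand to motifs chosen after the sequences had been seen. The motifs are GGGCGG (the GC box bound by Sp1 family factors), the core promoter sequence TATAAA with its variant form TTTAAA, and TGANTCA. The last is a loose form of the AP-1 site that allows any central base. Runs of capitals can hold overlapping matches.
LAMB3: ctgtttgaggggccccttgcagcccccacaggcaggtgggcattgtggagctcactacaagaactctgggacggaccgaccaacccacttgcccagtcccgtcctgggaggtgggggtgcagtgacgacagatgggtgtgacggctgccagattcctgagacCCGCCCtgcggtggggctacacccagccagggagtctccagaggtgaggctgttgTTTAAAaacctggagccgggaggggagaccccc
TNC: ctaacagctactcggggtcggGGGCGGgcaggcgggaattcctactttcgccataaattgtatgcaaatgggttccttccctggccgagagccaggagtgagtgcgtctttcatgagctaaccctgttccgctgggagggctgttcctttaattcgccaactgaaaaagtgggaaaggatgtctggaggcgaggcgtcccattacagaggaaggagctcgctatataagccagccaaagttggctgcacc
THBS1: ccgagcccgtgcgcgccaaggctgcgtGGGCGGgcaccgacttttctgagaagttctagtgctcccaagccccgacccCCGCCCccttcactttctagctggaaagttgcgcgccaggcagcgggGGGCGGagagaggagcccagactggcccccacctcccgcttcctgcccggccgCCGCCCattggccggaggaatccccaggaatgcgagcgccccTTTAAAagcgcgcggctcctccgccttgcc
ECM1: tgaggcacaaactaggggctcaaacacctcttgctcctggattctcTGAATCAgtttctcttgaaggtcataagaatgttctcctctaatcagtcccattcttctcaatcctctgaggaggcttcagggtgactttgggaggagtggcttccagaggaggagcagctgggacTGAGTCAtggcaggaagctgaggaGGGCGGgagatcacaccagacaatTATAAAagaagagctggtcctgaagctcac
HSPG2: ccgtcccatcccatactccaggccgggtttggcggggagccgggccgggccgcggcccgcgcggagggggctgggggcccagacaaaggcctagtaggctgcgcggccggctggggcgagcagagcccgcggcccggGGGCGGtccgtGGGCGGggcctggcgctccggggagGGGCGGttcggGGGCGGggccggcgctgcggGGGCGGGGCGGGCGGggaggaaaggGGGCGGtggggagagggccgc
GPC1: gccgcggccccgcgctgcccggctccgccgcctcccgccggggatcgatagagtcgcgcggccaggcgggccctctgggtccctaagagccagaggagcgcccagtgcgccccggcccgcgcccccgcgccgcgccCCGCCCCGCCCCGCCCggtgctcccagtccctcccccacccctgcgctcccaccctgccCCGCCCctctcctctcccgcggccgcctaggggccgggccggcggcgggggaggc

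The windows of LAMB3, TNC, THBS1 and ECM1 had a GC content of 64%, 54.8%, 69.6% and 50.4%, against 82.8% for HSPG2, 84% for GPC1, 82.8% for LAMA5 and 81.6% for EFEMP2, and a median of 58% over 27305 genes. These sets were split by removing a trend with transcript GC content, which was 45.6% to 58.9% in the former genes and 62.9% to 66.7% in the latter. A contrast in window GC content or GGGCGG number may thus follow from the split itself, which was not tested. The median window GC content was 75.6% for the 8 fallen genes and 69.8% for the 38 tested members with a window. The 27305 windows also include genes not tested here. GGGCGG occurred in the windows of all 8 fallen genes, in 29 of the 38 tested members with a window and in 42.3% of all windows. It occurred once in LAMB3, TNC and ECM1, 4 times in THBS1 and GPC1, 5 times in LAMA5 and EFEMP2 and 8 times in HSPG2. TATAAA stood in ECM1 and TTTAAA in LAMB3 and THBS1, against 11.1% and 11.4% of all windows. Only exact matches were counted, so other TATA-like letters, such as tatataa in the TNC window, are not in these shares. TGANTCA had 2 matches in ECM1 and was in 6.6% of all windows. These matches describe letters and do not show that a factor binds.

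In the basement membrane group 3 of 12 tested genes fell (LAMA5, LAMB3 and HSPG2), with 9 not passing, 10 of 12 below 0 and a median log2 fold change of -0.27. After GC removal the median was -0.21 and LAMB3 alone was lower, and without scrambled siRNA replicate 1 it was -0.16 and none was. The summed CPM of the 13 genes was 2612, 3228 and 2977 in H3F3A siRNA libraries, against 3873 and 3525 in scrambled siRNA libraries, without overlap, and it was 1280.4, 1493 and 1413 against 1632 and 1623 without HSPG2. Levels per kilobase of the longest transcript show which laminin chains Rh41 transcribes. Among alpha chains, LAMA5 had 18.6 CPM per kb after H3F3A siRNA and 25.4 after scrambled siRNA, LAMA1, the embryonic alpha chain, 4.49 and 4.18, and LAMA2, LAMA3 and LAMA4 no more than 0.166 in either group. Among beta chains, LAMB1 had 25.3 and 26.9 CPM per kb, LAMB2 16.4 and 18.6, and LAMB3 11.1 and 14.3. LAMC1, the gamma chain of most laminins, had 71.9 and 81.5 CPM per kb, and LAMC3 1.53 and 1.91.

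LAMC1 had 508, 611 and 583 CPM in H3F3A siRNA libraries, against 608 and 677 CPM in scrambled siRNA libraries. The groups overlapped at 1 library each, and the log2 fold change was -0.18 (95% interval -0.36 to 0.00, edgeR adjusted p = 0.281). NID1, or nidogen-1, the link between laminin and type IV collagen, had 259, 286 and 278 CPM in H3F3A siRNA libraries, against 323 and 313 CPM in scrambled siRNA libraries. These did not overlap, but the difference missed the threshold (log2 fold change -0.21, adjusted p = 0.13). LAMA4, the alpha chain of endothelial and muscle laminins, had the log2 fold change farthest from 0 of the 47, -0.56, on 20 to 23 reads per H3F3A siRNA library against 31 and 33 per scrambled siRNA library (95% interval -1.16 to 0.03, adjusted p = 0.333). LAMA1, at 38, 47.3 and 44.8 CPM in H3F3A siRNA libraries and 38.7 and 42 CPM in scrambled siRNA libraries, had an interval of -0.08 to 0.29. Nidogen-2 (NID2) was not tested.

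Of the 10 tested elastic fibre and microfibril genes EFEMP2 fell, 9 did not pass, 8 lay below 0, and the median log2 fold change was -0.18, or -0.07 with the GC trend removed and -0.06 without scrambled siRNA replicate 1. The summed CPM of the group was 479, 514 and 497 in H3F3A siRNA libraries, against 517 and 516 in scrambled siRNA libraries. FBN1, which encodes fibrillin-1, the main microfibril protein, had 90.2, 116 and 110.2 CPM in H3F3A siRNA libraries, against 99.4 and 111 CPM in scrambled siRNA libraries. The groups overlapped throughout, and the 95% interval of the log2 fold change was -0.19 to 0.20. FBN2, its embryonic relative, had 145, 166 and 165 CPM in H3F3A siRNA libraries, against 152 and 177 CPM in scrambled siRNA libraries (interval -0.22 to 0.12). MFAP4, a microfibril-associated glycoprotein, had 99.1, 92.8 and 84.7 CPM in H3F3A siRNA libraries, against 84.9 and 73 CPM in scrambled siRNA libraries. It ran opposite to its group, with a log2 fold change of 0.22 (adjusted p = 0.167) that passed with the GC trend removed (0.29, adjusted p = 0.0294) and not without scrambled siRNA replicate 1 (0.33, adjusted p = 0.0763). FBLN5, or fibulin-5, lay at 18 to 38 reads in H3F3A siRNA libraries, against 37 and 42 in scrambled siRNA libraries (log2 fold change -0.41, adjusted p = 0.504). Elastin (ELN) itself stood at 9.36 ± 0.744 CPM (SD, n = 3) and 9.55 ± 0.458 CPM (SD, n = 2).

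In the group of fibronectin and the matricellular proteins, TNC and THBS1 fell, 6 of 8 tested did not pass, and the median log2 fold change was -0.19, also with the GC trend removed, where TNC, THBS1 and SPARC were lower and THBS3 higher. Its summed CPM was 4808, 5391 and 4955 in H3F3A siRNA libraries, against 5792 and 5714 in scrambled siRNA libraries. FN1, which encodes fibronectin, had 2472, 3078 and 2671 CPM in H3F3A siRNA libraries, against 2932 and 3084 CPM in scrambled siRNA libraries. H3F3A siRNA replicate 2 reached the scrambled siRNA level, so the groups overlapped (log2 fold change -0.13, 95% interval -0.32 to 0.05, edgeR adjusted p = 0.467). SPARC, a collagen-binding matricellular protein and per kilobase the most abundant of the 59, had 1612, 1581 and 1543 CPM in H3F3A siRNA libraries, against 1973 and 1762 CPM in scrambled siRNA libraries. The groups did not overlap, yet the log2 fold change of -0.24 missed the threshold (edgeR adjusted p = 0.0927). SPARC passed by DESeq2 (adjusted p = 0.0169) and by edgeR with the GC trend removed (-0.29, adjusted p = 0.0267). Without scrambled siRNA replicate 1 its log2 fold change shrank to -0.16, or -0.18 with the GC trend also removed. THBS3, a pentameric thrombospondin, was higher in every H3F3A siRNA library, at 16.7, 19.5 and 17.7 CPM, against 15.2 and 14.1 CPM in scrambled siRNA libraries. Its log2 fold change was 0.29 (edgeR adjusted p = 0.12), 0.35 with the GC trend removed (adjusted p = 0.0432) and 0.34 without scrambled siRNA replicate 1. Its stranded columns summed to 1.77 times the unstranded count, so its level is uncertain where genes overlap. FN1, HSPG2 and SPARC together made up 52.2% to 55.2% of the summed CPM of the 59 genes in H3F3A siRNA libraries, against 53.8% and 53.9% in scrambled siRNA libraries.

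**Figure D3:**
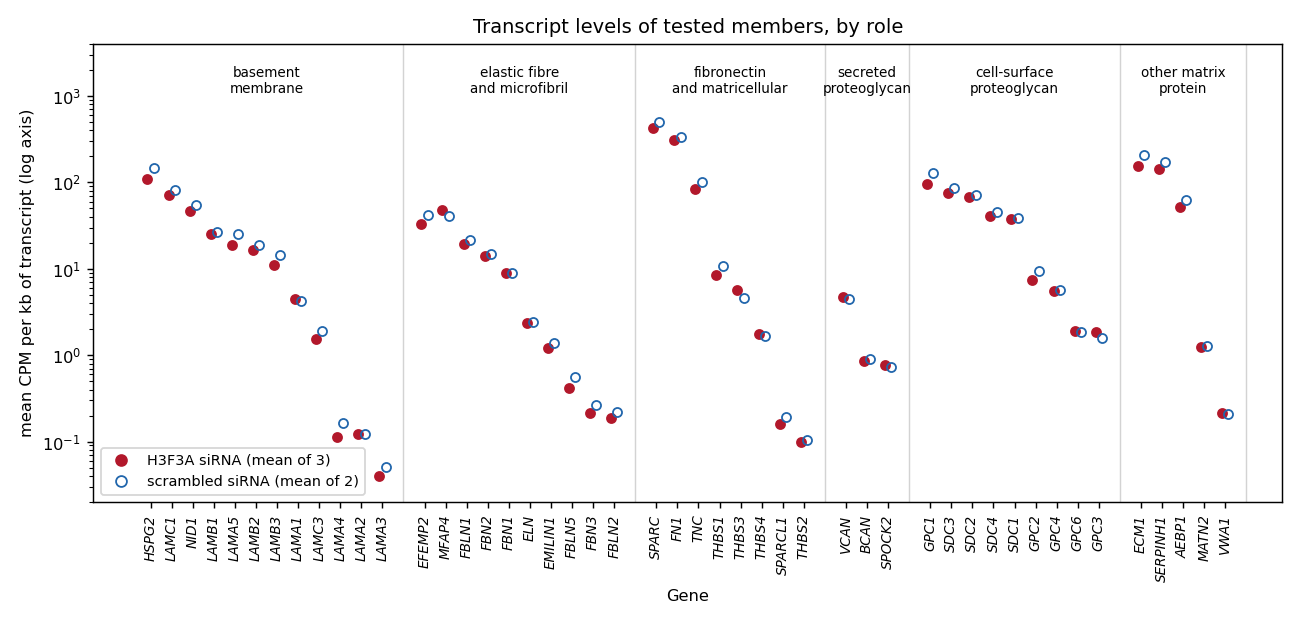
Mean CPM per kilobase of the longest transcript (log axis) of the 47 tested matrix genes by role, for H3F3A siRNA (filled red, left of each pair) and scrambled siRNA (open blue). SPARC is highest, at 427 and 505, and the alpha chain LAMA3 lowest, at 0.0399 and 0.0512.

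Secreted proteoglycans were scarce in Rh41. Of 9 genes, 6 were not tested: biglycan (BGN), decorin (DCN), lumican (LUM), aggrecan (ACAN), neurocan (NCAN) and testican-1 (SPOCK1). None of the other 3 fell or rose by edgeR, at an unadjusted p under 0.05, by limma-voom or by DESeq2 (which gave SPOCK2 no adjusted p), and their median log2 fold change was 0.05, or -0.07 without scrambled siRNA replicate 1. VCAN, or versican, the large hyaluronan-binding proteoglycan of loose and embryonic matrix, had 55.3, 64.3 and 59.4 CPM in H3F3A siRNA libraries, against 50 and 62.6 CPM in scrambled siRNA libraries. The H3F3A siRNA values lay mostly between the scrambled siRNA values (95% interval of the log2 fold change -0.11 to 0.27), though without scrambled siRNA replicate 3 it was 0.25 (adjusted p = 0.0475). SPOCK2, or testican-2, stood at 4.16 ± 0.178 CPM (SD, n = 3) and 4.01 ± 0.334 CPM (SD, n = 2). BCAN, or brevican, had 79 to 107 reads per library, and since its stranded columns summed to 13.3 times that, its level is uncertain.

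Among cell-surface proteoglycans GPC1 fell and 8 of 9 did not pass, with a median log2 fold change of -0.07, or -0.13 with the GC trend removed. SDC3, the syndecan of nerve and muscle precursor cells, had 471, 485 and 501 CPM in H3F3A siRNA libraries, against 573 and 518 CPM in scrambled siRNA libraries. These did not overlap, but the gap of the nearest libraries was smaller than that between the scrambled siRNA libraries (log2 fold change -0.17, 95% interval -0.33 to -0.01, edgeR adjusted p = 0.263). SDC2 had 257, 256 and 254 CPM in H3F3A siRNA libraries, against 265 and 269 CPM in scrambled siRNA libraries, a very narrow spread in each group (log2 fold change -0.06, 95% interval -0.21 to 0.09). SDC1, the epithelial syndecan, differed by -0.07 on the log2 scale (adjusted p = 0.70), and SDC4, the ubiquitous one, by -0.17 (adjusted p = 0.225). GPC2 differed by -0.35, which missed the threshold (adjusted p = 0.0567), while GPC3, GPC4 and GPC6 lay between -0.06 and 0.23.

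Of the remaining proteins, ECM1 fell and 4 of 5 tested did not pass, with a median log2 fold change of -0.27, or -0.11 with the GC trend removed. SERPINH1, the collagen chaperone HSP47, had 487, 455 and 493 CPM in H3F3A siRNA libraries, against 619 and 536 CPM in scrambled siRNA libraries. AEBP1, a collagen-binding carboxypeptidase-like protein, had 201, 211 and 216 CPM in H3F3A siRNA libraries, against 268 and 238 CPM in scrambled siRNA libraries. Both were lower in every H3F3A siRNA library and both lay close to the threshold, with a log2 fold change of -0.27 each (edgeR adjusted p = 0.0621 for SERPINH1 and 0.0515 for AEBP1), which was -0.17 and -0.11 with the GC trend removed. MATN2, or matrilin-2, and VWA1, a von Willebrand factor A domain protein, had intervals of -0.40 to 0.28 and -0.53 to 0.64.

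**Figure D4:**
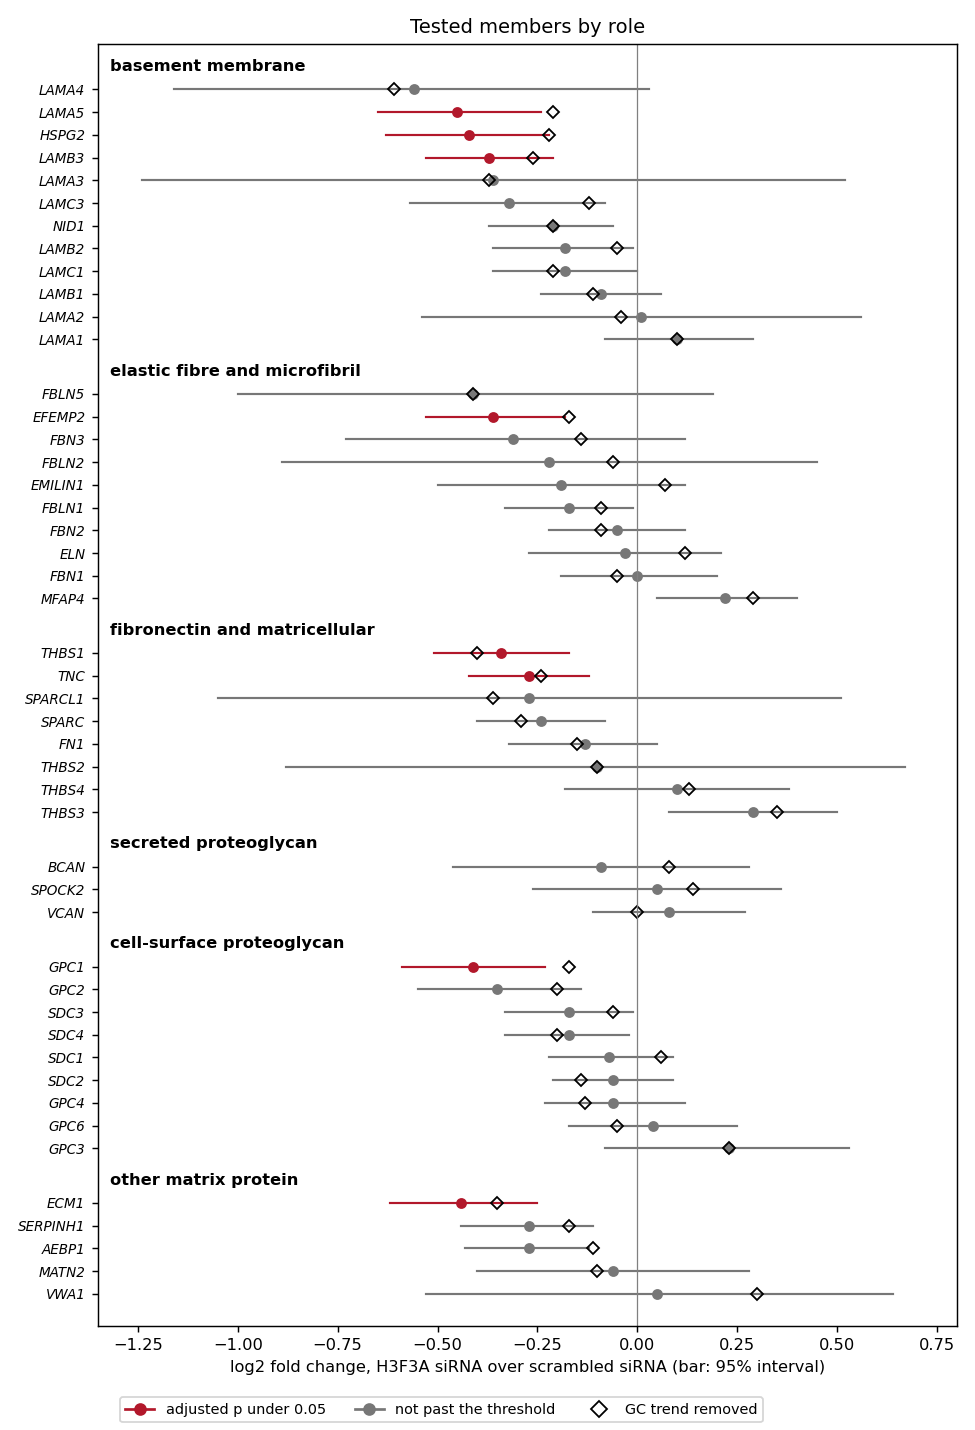
Log2 fold change (horizontal axis, H3F3A siRNA over scrambled siRNA) of each tested matrix gene, grouped by role and sorted within it, with its 95% interval as a bar. Red genes passed an adjusted p of 0.05 and grey ones did not. Open diamonds give the value with the GC trend removed, which lies nearer 0 for each red gene except THBS1.

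Every H3F3A siRNA library lay below every scrambled siRNA library in 20 of the 47 tested genes (42.6%), against 17.1% of all tested genes, and above in 3 (THBS3, GPC3 and GPC6), against 16% of all tested genes. By role the medians ran from -0.27 in the basement membrane and the remaining proteins to 0.05 in secreted proteoglycans. Whether the role groups differ from each other was not tested. The 12 genes that were not tested reached at most 0.436 CPM, or 13 reads, in any library, and besides the 6 secreted proteoglycans they were NID2, EFEMP1, MFAP2, TNXB, POSTN and MATN3. TNXB, tenascin-X, has 7 numbered copies of its row in the files, and all 8 rows together held 8 reads over the 5 libraries.

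Genes that work with these proteins gave the following counts in the same fit, in which 2.69% of all tested genes fell and 0.504% rose. Of 10 tested receptors of laminin and perlecan, 2 fell: DAG1, the dystroglycan of muscle, averaged 337 ± 11.2 CPM (SD, n = 3) after H3F3A siRNA and 429 ± 5.8 CPM (SD, n = 2) after scrambled siRNA (log2 fold change -0.35, edgeR adjusted p = 0.0109). The laminin receptor integrin ITGA6 averaged 143 ± 1.78 and 183 ± 21.4 CPM (adjusted p = 0.0156), and both also passed with the GC trend removed and without scrambled siRNA replicate 1. None of 13 genes that put the laminin-binding sugar on dystroglycan passed by edgeR, and their median log2 fold change was 0.06. Of the 13, 1 was lower at an unadjusted p under 0.05, against 10.9% of all tested genes. By DESeq2 1 was lower, against 4.41% of the genes to which it gave an adjusted p. By limma-voom none was, against 1.83% of all tested genes. Of 10 receptors of fibronectin and matricellular proteins, ITGA5, the fibronectin receptor alpha chain, fell (371 ± 4.19 and 455 ± 35.6 CPM, adjusted p = 0.0331, and 0.0656 with the GC trend removed).

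Of 14 elastic fibre assembly partners 4 fell, all of them lysyl oxidases, the enzymes that cross-link elastin and collagen, with a list median of -0.31. LOXL2, LOXL1, LOX and LOXL3 had log2 fold changes of -0.60, -0.54, -0.50 and -0.31. With the GC trend removed these were -0.50, -0.28, -0.61 and -0.24, and each still passed. The stranded columns of LOXL3 and LOXL1 summed to 1.62 and 1.35 times the unstranded count, so their levels are uncertain where genes overlap. Without scrambled siRNA replicate 1, LOXL2 (adjusted p = 0.0007) and LOXL1 (adjusted p = 0.0194) passed.

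Glycosaminoglycan chains are built on proteoglycan cores by linker enzymes and polymerases. Of 18 tested enzymes of this kind 4 fell, none rose and the median was -0.15. CHSY3, which polymerises chondroitin sulfate, fell by 0.38 on the log2 scale (adjusted p = 0.0218), and its partner CHPF by 0.37 (adjusted p = 0.0231). B3GALT6, a linker galactosyltransferase, had -0.31 and UXS1, which makes UDP-xylose, -0.27. After GC removal CHSY3 and UXS1 still passed, CHPF (adjusted p = 0.466) and B3GALT6 (adjusted p = 0.43) did not, and none of the 4 passed without scrambled siRNA replicate 1. Of 26 enzymes that modify the chains 1 fell, where 2.69% of all tested genes did. It was NDST4, an N-deacetylase and N-sulfotransferase of heparan sulfate, at 8.4 ± 0.61 CPM (SD, n = 3) after H3F3A siRNA and 13 ± 1.66 CPM (SD, n = 2) after scrambled siRNA (log2 fold change -0.63, SE 0.114, edgeR adjusted p = 0.0038, and 0.000921 with the GC trend removed).

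Of 18 other basement membrane components 2 fell. NTN1, or netrin-1, a laminin-related secreted protein, averaged 33.8 ± 3.33 CPM (SD, n = 3) and 50.5 ± 0.664 CPM (SD, n = 2) after H3F3A and scrambled siRNA (log2 fold change -0.58, adjusted p = 0.000968), and the collagen gene COL18A1 fell by 0.54 (adjusted p = 0.0055, and 0.0709 without scrambled siRNA replicate 1). Of 21 other matrix glycoproteins and proteoglycans 2 fell, the matricellular gene CCN1 (log2 fold change -0.42, adjusted p = 0.00347) and ELFN1, a membrane protein with leucine-rich repeats and a fibronectin type III domain (-0.45, adjusted p = 0.0194). CCN1 passed with the GC trend removed and without scrambled siRNA replicate 1, and ELFN1 passed in neither (adjusted p = 0.0985 and 0.375). No gene of these partner lists rose in the fit without GC removal. With it, LTBP4, a latent TGF-beta binding protein of microfibrils, was higher (log2 fold change 0.39, adjusted p = 0.00745, against 0.14 and 0.508 before), as was EXTL1, an exostosin-like glycosyltransferase (0.33, adjusted p = 0.0409, against 0.14 and 0.481 before). The integrin chains ITGB1 (adjusted p = 0.0351) and ITGA4 (adjusted p = 0.0492) and the heparan sulfate sulfotransferase HS6ST2 (adjusted p = 0.0105) were lower only after GC removal among these 2 fits. The stranded columns of COL18A1, EXTL1 and ITGA4 summed to 1.22, 1.33 and 1.21 times the unstranded count, so their levels are also uncertain.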

How the data were processed

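Poly-A RNA of 5 Rh41 libraries was sequenced (NEBNext Ultra kit, per the labels' protocols). Named in the submitters' processing notes, with no roles given, are hg19, HTSeq 0.6.1, STAR 2.5 and DESeq2. Each deposited table holds unnormalised counts of reads for every gene, in an unstranded and a pair of stranded columns, and the unstranded one was used, since 49.9% to 50.1% of stranded reads fell in the first. Summary lines stayed out of library sizes: 4.84% to 5.48% of reads were unmapped, 6.28% to 6.42% multimapping, 9.17% to 10.2% outside exons and 4.45% to 4.56% ambiguous.

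Groups come from the sample titles. Counts were tested with edgeR 4.0.16 (R 4.3.3): filterByExpr on group (minimum count 10, minimum total 15), TMM scaling, a robust quasi-likelihood fit without covariates, and adjustment over all 15859 tested genes. CPM use the TMM library sizes. GC content and length are those of the longest protein-coding (otherwise longest) GENCODE v29 transcript, matched by symbol for 26256 of 43714 rows. The GC trend was removed by a lowess offset per library (span 0.3). Promoter windows are RefSeq's on GRCh38.p14, and no coordinate comes from the files.

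Alternatives were DESeq2 1.42.0, limma-voom (limma 3.58.1), other scalings and filters, a replicate block, and leaving out each library. A further pair, the summed stranded columns and the removal of GC and length trends, were chosen after seeing the data. In simulations of this comparison with 200 changed genes, run on 15611 genes, 44% of changes of 0.4 log2 and 86% of changes of 1 log2 were recovered, and 6.5% of calls were unchanged genes. With no gene changed, 1 of 15628 was called. The simulated libraries carried no GC trend, so these rates do not cover data in which 1 library has such a trend. The members, role groups and partner lists were chosen with earlier results of these data known. Named are the members that passed, in each role the 3 most abundant and the 1 with the largest change, and further members chosen after their values were seen. Of each partner list, up to 4 genes that passed are named.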

Additional observations from a re-analysis of the deposited data

How the results depend on the processing

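Across 17 alternatives no member that fell turned its direction. Where 1 library was left out, this was largely fixed in advance, since the groups do not overlap in these genes. Of 405 recomputed log2 fold changes of the 24 members named by rule, 320 kept direction and side of the threshold, 39 lost the call, 24 gained it and 22 changed sign. Leaving out 1 library gave 0 to 17 members lower and 0 to 1 higher, and over all genes 9 to 1737 lower and 6 to 744 higher. With the GC trend removed 5 members were lower and 2 higher, and 252 genes were lower over all. With the GC trend removed and scrambled siRNA replicate 1 left out, 1 member and 66 genes were lower and 18 genes higher. With GC and length trends removed, 11 members were lower, 2 higher, and 145 genes were higher, against 75 with GC removal alone. The share of all genes lower in that fit is not given here, so the 11 members cannot be set against it. Over all genes, 153 were higher with no filter and 52 by limma-voom. Of these changes, those that follow from fewer samples or more genes tested lie in the construction of the alternative, and otherwise the cause was not tested.

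Same-numbered libraries deviated from their group means with a correlation of 0.11 (replicate 1) and 0.05 (replicate 3). With 2 scrambled siRNA libraries, the deviations of that group mirror each other. The correlations are therefore not separate checks and cannot decide whether the replicate numbers pair the libraries. With the replicate block 8 members were lower, 7 of them the same, with GPC2 in place of TNC, and over all genes 476 were lower and 98 higher. With the GC trend removed and the replicate block, 14 members were lower and 2 higher, and 691 genes were lower and 270 higher over all.

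None of the 22 values that changed sign passed the threshold. FBN1 had 0.00 by DESeq2 and limma-voom, -0.08 with the replicate block and without scrambled siRNA replicate 1, -0.07 and -0.03 without H3F3A siRNA replicates 2 and 3, -0.05 with GC or GC and length trends removed, -0.13 with GC removal and block, and -0.10 with GC removal without scrambled siRNA replicate 1. VCAN ran from -0.07 without scrambled siRNA replicate 1 to 0.25 without replicate 3, and had -0.06 with GC removal and block, -0.10 with GC removal without scrambled siRNA replicate 1, and 0.00 with both trends removed. SPOCK2 ran from -0.03 without scrambled siRNA replicate 1 to 0.14 without replicate 3, and had -0.01 with GC removal without replicate 1. FBN2 ran from -0.16 to 0.06 without scrambled siRNA replicates 1 and 3, and had 0.01 without H3F3A siRNA replicate 1. BCAN ran from -0.28 to 0.13 without scrambled siRNA replicates 1 and 3, and had 0.08 with GC or both trends removed and 0.03 with GC removal and block. Members under about 1 CPM have intervals over 1 log2 wide, so depth limits what can be said of them.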
